A study of Homo sapiens with 12 samples.

Results

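The 10 genes described here are transcriptional targets and feedback inhibitors of ERK signalling: the MAP kinase phosphatases DUSP6, DUSP4 and DUSP5, the Sprouty and Sprouty-related genes SPRY2, SPRY4, SPRED1 and SPRED2, the ETS factors ETV4 and ETV5, and PHLDA1. They were taken by symbol from the 17013 genes of the table, and all 10 were found. The list was chosen by function, but with values of the drug-free siMLK4 against siNT comparison in view, so the members' values in that comparison are a description and carry no test. RNA was sequenced from HCC1806, an established human triple-negative breast cancer line, in 4 groups of 3 libraries. Cells carried a non-targeting control siRNA (siNT) or a pool of 4 siRNAs against MLK4 (siMLK4), the mixed-lineage kinase encoded by MAP3K21. They were either kept in vehicle (labelled DMSO and time 0) or given doxorubicin, a DNA-damaging topoisomerase II poison, at 1 µM for 24 h. Every group was therefore a transfected culture of the same line, knock-down was transient, and the 4 siRNAs were not profiled one by one. The study's methods describe transfections in triplicate, without saying whether on separate days, so p-values measure the spread between such transfections. Although the titles read time 0, the study describes the drug-free cells as given DMSO over the same 24 h, or as left untreated. Each library held between 16759025 and 19302248 reads assigned to genes. Values are given as normalised reads, that is reads divided by a library's size factor, and differences are given on the deposited variance-stabilised log2 scale, which compresses differences of weakly expressed genes.

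ERK, the last kinase of the RAS, RAF and MEK cascade, switches on genes whose products then hold the cascade back. DUSP6 is a cytoplasmic phosphatase that acts on ERK, whereas DUSP4 and DUSP5 are nuclear phosphatases. Sprouty and SPRED proteins act upstream, between receptor tyrosine kinases and RAF, and SPRED proteins bring neurofibromin to the membrane. ETV4 and ETV5 are activators of the PEA3 group whose transcription is held down by the repressor CIC, which ERK inactivates. PHLDA1 is a pleckstrin homology-like domain protein that is induced by growth factors and by several stresses. The mRNA levels of such genes are widely used as a readout of the pathway, although phosphorylated ERK itself was not measured in these data.

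Because the knock-down reagent is the variable compared, its sequences are shown first. The sense strands of the 4 MLK4 siRNAs are printed from their first base, with capitals marking the 7 bases that pair with positions 2 to 8 of the guide strand, the seed.
siMLK4_1: ggaaagaugcuCAGAGAGauu
siMLK4_2: aggagaagcccAAGGUAAauu
siMLK4_3: agaagaaacgaGAGGGAAuuu
siMLK4_4: agaacagauugCAAAGAAauu
Among the MANE Select transcripts, 1 chosen per gene, the 19-base core of each matched MAP3K21 and no other gene. The capitalised words are short and therefore common in 3′ UTRs. Among 13491 measured genes with a 3′ UTR in such a transcript, the siMLK4_1 word was found in 17.6%, the siMLK4_2 word in 11.5%, the siMLK4_3 word in 17.2% and the siMLK4_4 word in 20.4%. At least 1 of the 4 words was found in 44.3% of these genes and in 7 of the 9 members that could be searched. A longer 3′ UTR has more places for a word, and these shares were not adjusted for length. The members' 3′ UTRs ran from 673 bases in ETV4 to 5585 in SPRED1, beside a median of 1313 over the searched genes. The siMLK4_1 word lay in DUSP6, DUSP4, SPRY2, SPRED1, SPRED2 and ETV4, the siMLK4_3 word in DUSP4 and the siMLK4_4 word in SPRY4. DUSP5 and ETV5 held none, and PHLDA1 was not searched. Over all searched genes, the median log2 difference between siMLK4 and siNT in vehicle was -0.024 with the siMLK4_1 word and -0.012 without it. The same medians were -0.092 and -0.004 for siMLK4_2, -0.072 and -0.002 for siMLK4_3, and -0.047 and -0.007 for siMLK4_4. The part of seed matches in the members' values was not tested.

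Promoter windows, from 250 bases before to 50 bases after the start site, were matched by symbol in RefSeq (GRCh38.p14) for 6 of the 10 genes, namely DUSP6, SPRY2, SPRY4, SPRED1, SPRED2 and PHLDA1. Both strands were searched for the octamers bound by CIC (TGAATGAA, TGAATGGA, TCAATGAA and TCAATGGA), an ETS word (CCGGAAGT), an AP-1 word (TGACTCA or TGAGTCA, which are each other's reverse complement) and the CArG box of SRF. DUSP6 was the one member of the 6 with a match, and it held the same CIC octamer in 2 places, read on its own strand as the reverse complement of TCAATGGA. The stretch from 50 bases before to 20 bases after its start site is shown because it carries both copies in capitals (chr12:89352482-89352551, minus strand).
DUSP6 promoter: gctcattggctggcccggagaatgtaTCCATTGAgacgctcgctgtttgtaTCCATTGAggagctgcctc
The first copy began 24 bases before the start site and the second at base 2 of the transcript. A CIC octamer was present in 3.86% of all 27305 promoter windows, the ETS word in 4.44%, the AP-1 word in 4.92% and the CArG box in 1.29%. Among the 12030 windows of measured genes the shares were 2.43%, 8.1%, 3.3% and 1.01%. A match of letters is no evidence of binding, and no match says only that these words are not in the window.

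The targeted transcript was checked before any other. MAP3K21 stood at 553, 670 and 674 normalised reads in the siNT vehicle libraries and at 103, 94.7 and 88.7 in the siMLK4 vehicle libraries. With doxorubicin it stood at 758, 856 and 772 in siNT and at 113, 138 and 94.4 in siMLK4. The groups did not overlap in either treatment, and the siMLK4 libraries matched their label. MAP3K21 fell by 2.24 on the log2 scale in vehicle (limma, SE 0.12, adjusted p = 9.74e-08) and by 2.37 with doxorubicin (limma, SE 0.12, adjusted p = 1.12e-07). Markers of a basal epithelial line were abundant, with KRT5 between 5954 and 33620 normalised reads over the 12 libraries, KRT6A between 2431 and 15470, KRT14 between 842 and 6932 and KRT17 between 2034 and 4794. EGFR lay between 1792 and 8399, CDH1 between 3014 and 6436 and EPCAM between 7534 and 17070 normalised reads. ERBB2, which such a line does not amplify, lay between 1272 and 2027, and ESR1, the oestrogen receptor gene, between 36.0 and 148. PGR, the progesterone receptor gene, was at 0 in all 6 vehicle libraries and between 7.26 and 18.5 normalised reads with doxorubicin. Of the markers of other cell types, CD14 lay between 10.6 and 43.4, PTPRC between 0 and 21.2, VWF between 13.5 and 67.1, PDGFRB between 1.02 and 26.1 and COL1A1 between 254 and 577 normalised reads. COL1A2, PECAM1 and CD3E were looked up and not found among the genes with values. Some markers moved with the knock-down. Of the 7 epithelial markers, KRT6A and KRT14 were lower in siMLK4 cells without drug, at 43.5% and 47.8% of siNT, and KRT6A, KRT14 and KRT17 with drug, while none was higher. KRT5, the most abundant of them without drug, stood at 154.5% of siNT in vehicle and EPCAM at 64.4%, both short of the fold threshold. Summed over the 7, the vehicle libraries held between 66580 and 71040 normalised reads in siNT and between 62730 and 66670 in siMLK4, and the doxorubicin libraries between 38030 and 41730 and between 26880 and 30180. COL1A1, the most abundant of the 5 measured markers of other cell types, was higher in siMLK4 cells without drug, at 184.8% of siNT (limma, adjusted p = 0.000412). The sum of those 5 lay between 315 and 375 in siNT and between 579 and 696 in siMLK4 without drug, and between 328 and 365 and between 449 and 599 with it. The part of these differences in the members' values was not tested.

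Without drug, all 10 genes had a lower mean in siMLK4 than in siNT cells, with a median log2 difference of -1.45 beside 0.01 over all genes. In 8 of the 10, every siMLK4 library lay below every siNT library, an arrangement found in 18.0% of all genes, and SPRED2 and PHLDA1 were the exceptions. Since the genes were chosen on this comparison, nothing is read from these counts.

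DUSP6, the phosphatase that acts on ERK in the cytoplasm (ENSG00000139318, chr12:89347235-89352501, minus strand), differed most. It stood at 1686, 1220 and 1470 normalised reads in the siNT vehicle libraries and at 176, 216 and 171 in the siMLK4 vehicle libraries. On average MLK4-depleted cells kept 12.9% of the siNT level, a log2 difference of -2.66 (SE 0.12) that was -2.95 on the scale of log2(normalised reads + 1). In bulk RNA, fewer cells that express a gene and less of its RNA per cell cannot be told apart. The doxorubicin-treated libraries stood closer together, at 1160, 1164 and 1203 in siNT and 479, 545 and 510 in siMLK4. With drug the level in MLK4-depleted cells was 43.5% of that in siNT, and no library of one siRNA reached those of the other. DUSP4, a nuclear phosphatase on chromosome 8 (ENSG00000120875), stood at 1596, 1336 and 1252 in siNT and at 408, 603 and 403 in siMLK4 without drug. With doxorubicin it stood at 1267, 1288 and 1602 in siNT and at 593, 548 and 707 in siMLK4. DUSP4 was thus the phosphatase with the smallest shift between treatments, at 33.8% of siNT in vehicle and 44.4% with the drug. DUSP5, the nuclear ERK phosphatase (ENSG00000138166, chr10:110497907-110511533, plus strand), stood at 2740, 1744 and 2259 in siNT and at 592, 746 and 768 in siMLK4 without drug. With doxorubicin it stood at 2760, 2531 and 2867 in siNT and at 1459, 1391 and 1450 in siMLK4. On average MLK4-depleted cells had 31.2% of the siNT level without and 52.7% with the drug, without overlap in either.

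The Sprouty and SPRED genes were uneven. SPRY4 (ENSG00000187678, chr5:142310427-142326455, minus strand), an inhibitor of receptor tyrosine kinase signalling, stood at 571, 542 and 694 normalised reads in siNT and at 122, 137 and 90.8 in siMLK4 without drug. With doxorubicin it stood at 539, 651 and 669 in siNT and at 241, 279 and 228 in siMLK4. The mean in MLK4-depleted cells was 19.3% of that in siNT in vehicle and 40.2% with the drug, and the libraries did not overlap. SPRY2 (ENSG00000136158, chr13:80335976-80341126, minus strand), the other Sprouty gene, had non-overlapping libraries in vehicle alone. It stood at 156, 145 and 146 in siNT and 78.2, 82.7 and 94.1 in siMLK4 without drug. With doxorubicin the libraries mixed, at 118, 109 and 116 in siNT and 114, 103 and 111 in siMLK4. SPRED1 (ENSG00000166068, chr15:38252836-38357249, plus strand), which recruits neurofibromin, stood at 1915, 1549 and 2215 in siNT and 1214, 1128 and 883 in siMLK4 without drug. With doxorubicin it stood at 1373, 1602 and 1612 in siNT and at 1296, 1375 and 1256 in siMLK4, where 1 siMLK4 library passed the lowest siNT library. SPRED2 (ENSG00000198369, chr2:65310851-65432637, minus strand) overlapped in both treatments. Its vehicle libraries spread widely, at 1373, 1796 and 2441 in siNT and at 1671, 1463 and 1105 in siMLK4. SPRED2 with doxorubicin stood at 1381, 1600 and 1579 in siNT and at 1531, 1687 and 1437 in siMLK4.

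ETV4 and ETV5 encode ETS activators. ETV4 (ENSG00000175832, chr17:43527844-43579620, minus strand) stood at 1141, 959 and 973 normalised reads in siNT and at 334, 355 and 358 in siMLK4 without drug. With doxorubicin it stood at 1069, 912 and 1073 in siNT and at 511, 484 and 627 in siMLK4. The siMLK4 mean of ETV4 was 34.0% of siNT in vehicle and 53.1% with the drug. ETV5 (ENSG00000244405, chr3:186046314-186110318, minus strand) stood at 1306, 724 and 1275 in siNT and at 223, 206 and 182 in siMLK4 without drug. The siNT library of replicate 2 was low for ETV5, yet still above all 3 siMLK4 libraries. With doxorubicin ETV5 stood at 890, 918 and 802 in siNT and at 588, 670 and 509 in siMLK4. Its siMLK4 mean moved from 18.5% to 67.7% of siNT between the treatments. PHLDA1 (ENSG00000139289, chr12:76025447-76031776, minus strand) behaved otherwise. It stood at 3186, 1955 and 2904 in siNT and 1814, 1860 and 2205 in siMLK4 without drug, with 1 siMLK4 library above the lowest siNT library. With doxorubicin it was lower under both siRNAs, at 1051, 1168 and 1177 in siNT and at 630, 552 and 787 in siMLK4. Coordinates are those of GENCODE 44 on GRCh38.

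**Figure D1:**
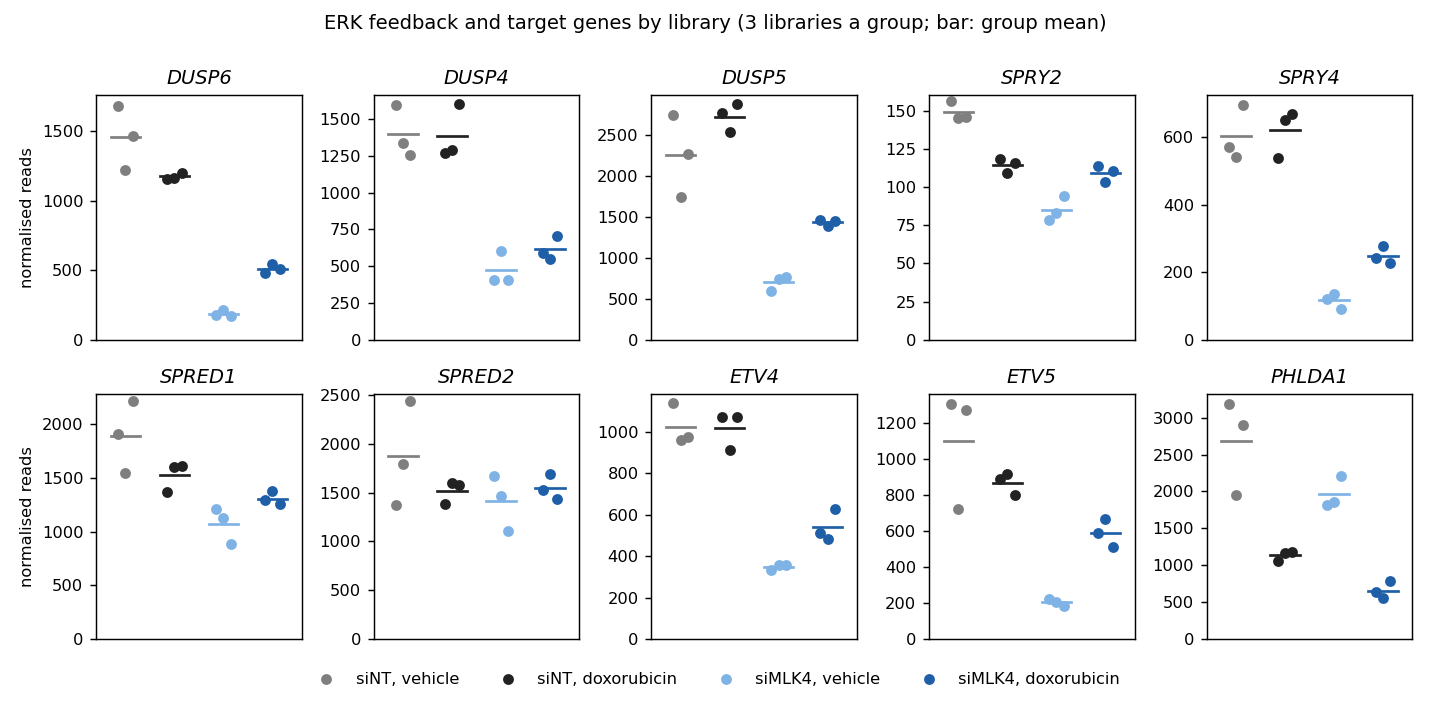
Normalised reads of each of the 10 genes in the 12 libraries, on linear axes that start at 0 and differ between genes; points are libraries (3 per group), bars are group means. For DUSP6 the siMLK4 vehicle libraries sit between 171 and 216 and the siMLK4 doxorubicin libraries between 479 and 545, while PHLDA1 is lower with doxorubicin under both siRNAs.

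The comparison of siMLK4 with siNT under doxorubicin uses other libraries, but it is the same siRNA contrast on which the genes were chosen and so is not independent evidence of their direction. The share of all genes beside the members' count is a background and not what genes chosen as lower without drug would give. In this comparison 6 of the 10 genes were lower at an adjusted p under 0.01 and a log2 difference beyond 0.75, against 2.93% of all genes, and none was higher, against 2.66% of all genes. SPRY4 fell by 1.16 on the log2 scale (limma, SE 0.14, adjusted p = 5.27e-05). DUSP6 fell by 1.13 (limma, SE 0.12, adjusted p = 2.48e-05) and DUSP4 by 1.10 (limma, SE 0.16, adjusted p = 0.000206). DUSP5 fell by 0.90 (limma, adjusted p = 0.000521) and ETV4 by 0.86 (limma, adjusted p = 0.000163). PHLDA1 lay at the edge of the fold threshold, with a log2 difference of -0.75 (limma, SE 0.17, adjusted p = 0.00464). Its call was lost with library-total scaling (-0.70), where the median of all genes moved from 0.023 to 0.097. Relative to that median PHLDA1 stood at -0.77 in the main fit and -0.80 with library totals. The call was also lost without any 1 of 5 libraries (-0.80 to -0.64). These were each of the 3 siNT and replicates 1 and 2 of the siMLK4 doxorubicin libraries. ETV5 differed by -0.53 (limma, SE 0.18, adjusted p = 0.0443) and was not called. Its libraries did not overlap, but no share of all genes is given for that arrangement with drug, so nothing is read from it. The same holds for the libraries of DUSP6, DUSP5 and SPRY4 with drug. SPRED1 at -0.21 (SE 0.14), SPRY2 at -0.05 (SE 0.10) and SPRED2 at 0.03 (SE 0.18) did not pass the test.

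**Figure D2:**
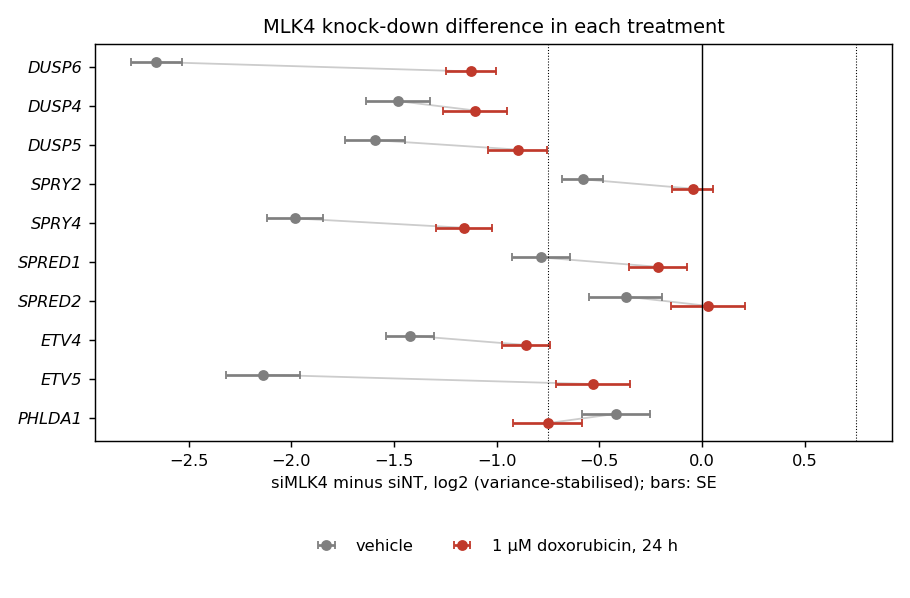
Log2 difference between siMLK4 and siNT on the variance-stabilised scale for each gene, in vehicle (grey) and with 1 µM doxorubicin for 24 h (red); points are estimates over 3 libraries per group, bars are standard errors, and dotted lines mark 0.75. DUSP6 moves from -2.66 to -1.13 and ETV5 from -2.14 to -0.53, while PHLDA1 moves from -0.42 to -0.75.

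The response to doxorubicin was then compared under each siRNA. These comparisons include the drug-free libraries on which the genes were chosen, so for the members they are a description without p-values, and nothing is read from their counts. Counts of values past the thresholds of the fit are given beside the share of all genes. In siNT cells, 1 of the 10 genes passed both thresholds as lower, beside 10.6% of all genes, and none as higher, beside 12.1%. PHLDA1 stood at 0.422 of its vehicle mean, a log2 difference of -1.18 (SE 0.17), and its libraries did not overlap. The other 9 ranged from -0.29 for DUSP6 (SE 0.12) and SPRED1 (SE 0.14) to 0.29 for DUSP5 (SE 0.14), and none of them passed the thresholds. DUSP4, with -0.01 (SE 0.16), and ETV4, with -0.01 (SE 0.12), had the smallest differences.

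In MLK4-depleted cells, 4 of the 10 genes passed both thresholds as higher with doxorubicin, beside 12.6% of all genes, and 1 as lower, beside 10.6%. The mean of ETV5 was 2.89 times its vehicle mean, a log2 difference of 1.33 (SE 0.18). For DUSP6 the ratio of means was 2.72 and the log2 difference 1.24 (SE 0.12). For SPRY4 they were 2.14 and 0.86 (SE 0.14), and for DUSP5 2.04 and 0.99 (SE 0.14). Without the siMLK4 vehicle library of replicate 3, SPRY4 stood at 0.74, short of the fold threshold. PHLDA1 stood at 0.335 of its vehicle mean, a log2 difference of -1.51 (SE 0.17). ETV4 had a log2 difference of 0.56 (SE 0.12), below the fold threshold, and passed it with library-total scaling (0.78). That scaling moved the median of all genes from 0.018 to 0.178. Relative to the median ETV4 stood at 0.54 in the main fit and 0.6 with library totals, both short of the fold threshold. All doxorubicin libraries lay above all vehicle libraries for 7 of the 10 genes, DUSP6, DUSP5, SPRY2, SPRY4, SPRED1, ETV4 and ETV5, an arrangement found in 33.4% of all genes. The means of DUSP6, DUSP5, SPRY4 and ETV5 in drug-treated MLK4-depleted cells were below those of siNT cells in vehicle. DUSP6 reached 511 ± 32.7 normalised reads (SD, n = 3) against 1459 ± 233 (SD, n = 3), and ETV5 reached 589 ± 80.7 (SD, n = 3) against 1102 ± 328 (SD, n = 3).

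**Figure D3:**
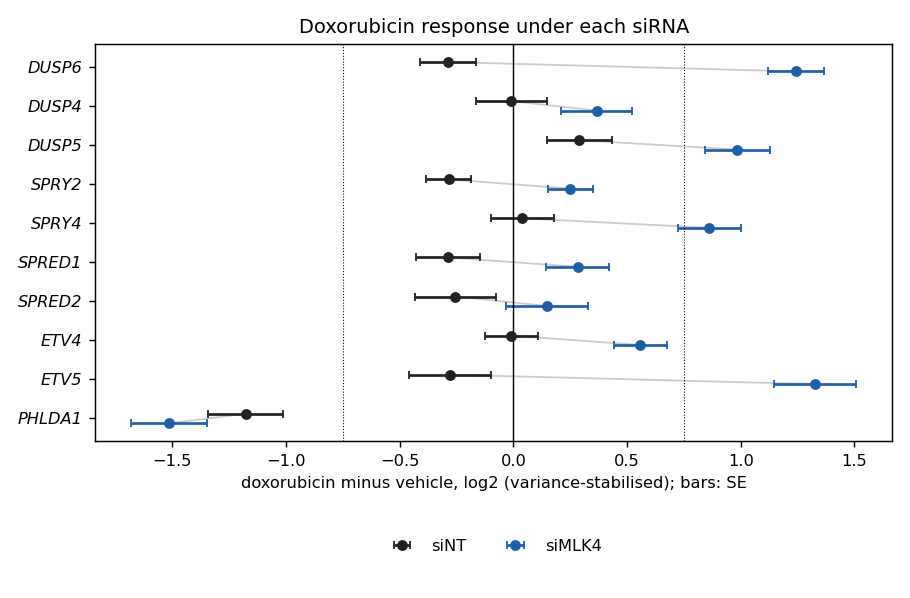
Log2 difference between doxorubicin (1 µM, 24 h) and vehicle on the variance-stabilised scale for each gene, in siNT (black) and siMLK4 cells (blue); points are estimates over 3 libraries per group, bars are standard errors, and dotted lines mark 0.75. Among the genes, DUSP6, DUSP5, SPRY4 and ETV5 lie beyond 0.75 in siMLK4 cells and between -0.29 and 0.29 in siNT cells, while PHLDA1 lies below -0.75 in both.

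The difference between the 2 responses contains the drug-free comparison on which the genes were chosen, so for the members it is a description without p-values. It was positive for 9 of the 10 genes, the median being 0.57 (log2) beside 0.01 over all genes. It was 1.61 (SE 0.25) for ETV5 and 1.53 (SE 0.17) for DUSP6. SPRY4 followed with 0.82 (SE 0.19), DUSP5 with 0.69 (SE 0.20), SPRED1 with 0.57 (SE 0.20), ETV4 with 0.57 (SE 0.17), SPRY2 with 0.53 (SE 0.14), SPRED2 with 0.40 (SE 0.26) and DUSP4 with 0.38 (SE 0.22). Over all genes, 0.0999% passed both thresholds in that direction and 0.176% in the other, and nothing about the members is read from these shares. PHLDA1 was the one negative value, at -0.34 (SE 0.23). Neither of the highest values was past the thresholds under every setting. ETV5 was not with the replicate number as a block (1.61), with limma-voom (1.81) or without single libraries in 11 of 12 cases (1.47 to 1.70), and DUSP6 was not without the siMLK4 doxorubicin library of replicate 1 (1.57).

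Levels can be compared between the genes only per length. In siNT vehicle cells, DUSP5 was highest of the 10 at 887 normalised reads per kilobase of exon, and SPRY2 lowest at 46.4. Between them stood PHLDA1 at 453, DUSP6 at 378, SPRED2 at 340, ETV4 at 292, SPRED1 at 244, DUSP4 at 192, ETV5 at 191 and SPRY4 at 91.9 normalised reads per kilobase. Of neighbours in this order, DUSP5 and PHLDA1, ETV5 and SPRY4, and SPRY4 and SPRY2 were further apart than their summed SDs, and the other neighbours were not. In siMLK4 vehicle cells PHLDA1 stood first at 331, followed by DUSP5 at 277 and SPRED2 at 257, while SPRY4 was last at 17.8 and DUSP6 had dropped to 48.7 normalised reads per kilobase.

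Across the 12 libraries, the Pearson correlation with DUSP6 was 0.98 for SPRY4, 0.98 for ETV4, 0.97 for ETV5, 0.96 for DUSP5 and 0.95 for DUSP4. It was 0.88 for SPRY2 and for SPRED1, 0.42 for SPRED2 and 0.12 for PHLDA1. These correlations are over libraries of 4 groups, so they mostly reflect the group means, and no p is given. Of the 10548 protein-coding genes with a mean of at least 100 normalised reads, the 5 most like DUSP6 were CHCHD4 (r = 0.983), SPRY4 (0.981), SERPINE2 (0.980), ETV4 (0.976) and CCNA1 (0.976). SERPINE2, which encodes the secreted protease inhibitor nexin-1, averaged 2608 and 2837 normalised reads in siNT and 403 and 836 in siMLK4, each without and then with drug. CCNA1, a cyclin gene, averaged 345 and 287 in siNT. The 5 most like PHLDA1, the member with the largest response to the drug in siNT cells, were COPB1 (r = 0.986), MCTP1 (0.985), MYEOV (0.982), HSPA5 (0.982) and EIF3A (0.982). HSPA5, the chaperone of the endoplasmic reticulum, averaged 60490 and 20200 in siNT and 39610 and 12950 in siMLK4.

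Libraries of one group differed for these genes. In the siNT vehicle group, replicate 2 held the lowest value for 8 of the 10 genes and the highest for none. With doxorubicin, replicate 3 of siNT held the highest for 7 and the lowest for 1. In siMLK4, replicate 3 held the lowest for 6 and the highest for 4 in vehicle. Replicate 2 held the lowest for 5 and the highest for 5 with the drug. Several of these genes correlate strongly and no share of all genes is given, so nothing is read from these counts. Libraries also differed in how values followed exon length, with slopes per 10-fold length of -0.062, 0.127 and 0.262 in the siNT vehicle group and 0.223, 0.095 and -0.168 in the siMLK4 vehicle group. In the siNT vehicle group SPRED2 followed the order of these slopes and DUSP4 ran opposite to it. In the siMLK4 vehicle group 3 genes followed it, SPRED1, SPRED2 and ETV5, and 4 ran opposite, DUSP5, SPRY2, ETV4 and PHLDA1. With doxorubicin the slopes were -0.202, 0.018 and -0.052 in siNT and -0.089, -0.014 and -0.14 in siMLK4. In the siNT doxorubicin group SPRED2 followed their order and SPRY2 ran opposite. In the siMLK4 doxorubicin group SPRY4, SPRED1, SPRED2 and ETV5 followed it, and DUSP4, ETV4 and PHLDA1 ran opposite. The part of exon length in the members' values was not tested beyond a fit with the slope as a covariate. In that fit the difference of the responses was 0.77 for SPRY4 and past both thresholds, whereas 0.82 in the main fit was not. Members past both thresholds were then 3, beside 2 in the main fit, and genes called were 231, beside 47. For the members these are counts and no test.

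Other genes of the pathway, in 4 lists fixed by textbook role but with earlier results of these data known, were set beside the 10 genes. The core cascade comprised 21 genes, from adaptors and regulators of RAS to ERK. In siMLK4 cells in vehicle 2 of the 21 were lower, against 3.14% of all genes, and none was higher, against 2.51%, with a list median of -0.19. NRAS, a RAS gene, fell by 0.92 on the log2 scale in vehicle (limma, SE 0.11, adjusted p = 4.25e-05), from 3618 ± 95.8 to 1887 ± 115 normalised reads (SD, n = 3 each). It was also the one gene of this list lower in siMLK4 than in siNT cells with doxorubicin, by 0.96 (limma, SE 0.11, adjusted p = 3.86e-05). Of all genes 2.93% were lower in that comparison and 2.66% higher, and none of this list was higher. RRAS2, a RAS-related GTPase, fell by 0.78 in vehicle (limma, SE 0.12, adjusted p = 0.000506), with -0.73 and no call without the siMLK4 vehicle library of replicate 2 and the same loss without the siNT vehicle library of replicate 3 (-0.75). With doxorubicin, HRAS, NRAS, SHC1, ARAF and NF1 were lower under both siRNAs, beside 10.6% of all genes in each. RRAS2 was called lower in siNT cells (-0.75) and stood at -0.55 in siMLK4 cells. KSR1, a scaffold of the cascade, stood in vehicle at 193.8% of siNT in siMLK4 cells, a log2 difference of 0.75 (limma, SE 0.11, adjusted p = 0.000275) that fell just short of the fold threshold. KSR1 was higher with doxorubicin in siNT cells, by 0.85 (limma, SE 0.11, adjusted p = 2.17e-05), and differed by 0.02 (SE 0.11) in siMLK4 cells. The difference of its responses, -0.82 (limma, SE 0.16, adjusted p = 0.0213), did not pass the test.

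Among 14 other feedback inhibitors and MAP kinase phosphatases, DUSP7, a cytoplasmic ERK phosphatase related to DUSP6, was the one gene lower in siMLK4 cells, beside 3.14% of all genes without and 2.93% with drug. It stood at 687, 894 and 701 normalised reads in siNT and at 285, 285 and 182 in siMLK4 without drug, and fell by 1.44 on the log2 scale (limma, SE 0.15, adjusted p = 1.41e-05). With doxorubicin it fell by 0.88 (limma, SE 0.15, adjusted p = 0.000791). No gene of this list was higher in siMLK4 cells in either treatment, and the list medians were 0.08 in vehicle and -0.16 with the drug. DUSP1, a stress-induced phosphatase that prefers p38 and JNK, rose with doxorubicin 3.34-fold in mean normalised reads in siNT cells (limma, adjusted p = 1.66e-06) and 3.81-fold in siMLK4 cells (limma, adjusted p = 1.22e-06). SPRED3, IL17RD and DUSP16 also rose under both siRNAs and DUSP9 fell under both, so that 4 of the 14 were higher in siNT cells, beside 12.1% of all genes, and 5 in siMLK4 cells, beside 12.6%. The fifth was SPRY3, with 0.79 in siMLK4 and 0.73 in siNT cells, on either side of the fold threshold. DUSP7 had -1.28 in siNT and -0.71 in siMLK4 cells and ERRFI1 -0.85 and -0.40, each called in siNT cells, where 3 of the 14 were lower beside 10.6% of all genes. None of these 3 genes passed the test of the difference between the responses (limma, adjusted p = 0.925 for SPRY3, 0.218 for DUSP7 and 0.594 for ERRFI1).

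Of 14 other ERK target genes, 8 were lower in siMLK4 cells without drug, against 3.14% of all genes, and none was higher, against 2.51%, with a list median of -0.87. They were EPHA2, ETV1, FOSL1, FOS, EGR1, IER3, MAFF and PLAUR. The list was drawn up with earlier results of these data known, so its counts and p-values are not independent evidence of direction. FOSL1, an AP-1 subunit whose expression depends on ERK, stood at 2131, 2302 and 2373 normalised reads in siNT and at 481, 652 and 354 in siMLK4. It fell by 2.12 on the log2 scale (limma, SE 0.16, adjusted p = 8.41e-07). EGR1, an immediate early zinc finger factor, stood at 477, 369 and 518 in siNT and at 98.2, 95.7 and 89.7 in siMLK4, and fell by 1.81 (limma, SE 0.12, adjusted p = 5.74e-07). ETV1, the third gene of the PEA3 group, stood at 326, 414 and 482 in siNT and at 150, 157 and 94.1 in siMLK4. ETV1 fell by 1.33 (limma, SE 0.17, adjusted p = 6.75e-05). With doxorubicin 4 of the 14 were lower in siMLK4 cells, EPHA2, FOSL1, MAFF and LIF, against 2.93% of all genes, and the list median was -0.59. MAFF, at -0.96, lost its call without any 1 of 5 libraries, each of the 3 siNT and replicates 1 and 2 of the siMLK4 doxorubicin libraries (-0.98 to -0.89). ETV1 then differed by -0.04 (SE 0.17) and stood at 240, 267 and 314 in siNT and at 238, 309 and 250 in siMLK4. FOSL1 still differed by -1.45 (limma, SE 0.16, adjusted p = 2.73e-05).

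With the drug, members of this list changed in both directions. FOS, EPHA4 and EPHA2 rose under both siRNAs and HMGA2 fell under both. FOS was weakly expressed in vehicle, at a mean of 41.1 normalised reads in siNT and 7.88 in siMLK4, where the log2 scale compresses differences. Its ratio of means was 6.28 in siNT and 18.66 in siMLK4 cells. The log2 difference of its responses, 0.25 (limma, SE 0.18, adjusted p = 0.592), did not pass the test. In all 4 of the 14 were higher and 2 lower in siNT cells, beside 12.1% and 10.6% of all genes, and 6 higher and 1 lower in siMLK4 cells, beside 12.6% and 10.6%. EGR3 was called in siNT cells, with 1.13 and 0.69 under siNT and siMLK4, and FOSL1 likewise, with -0.89 and -0.21. ETV1 was called in siMLK4 cells, with -0.49 and 0.80, and MAFF likewise, with 0.66 and 1.23. None of these 4 passed the test of the difference (limma, adjusted p = 0.376 for EGR3, 0.162 for FOSL1, 0.0173 for ETV1 and 0.373 for MAFF). EPHA4, an ephrin receptor, rose by 2.37 in siNT and by 2.41 in siMLK4 cells on the log2 scale, and its knock-down differences were 0.04 and 0.08. EGR1 stood at 717, 655 and 700 in siNT and at 419, 355 and 441 in siMLK4 with doxorubicin. Its response was larger in siMLK4 cells by 1.10 on the log2 scale (limma, SE 0.17, adjusted p = 0.00742), which made it the one gene of the 4 lists called for the difference of the responses. Leaving out single libraries gave EGR1 values between 1.01 and 1.23 and lost the call in 11 of 12 cases. Of the 12 ETS factors and CIC-related genes, ELK4 fell by 0.94 (limma, SE 0.17, adjusted p = 0.00112) and ETS1 by 0.94 (limma, SE 0.16, adjusted p = 0.000767) without drug. These were 2 of 12, beside 3.14% of all genes, and none of the 12 was called in the other comparisons, beside the shares of all genes given above.

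**Figure D4:**
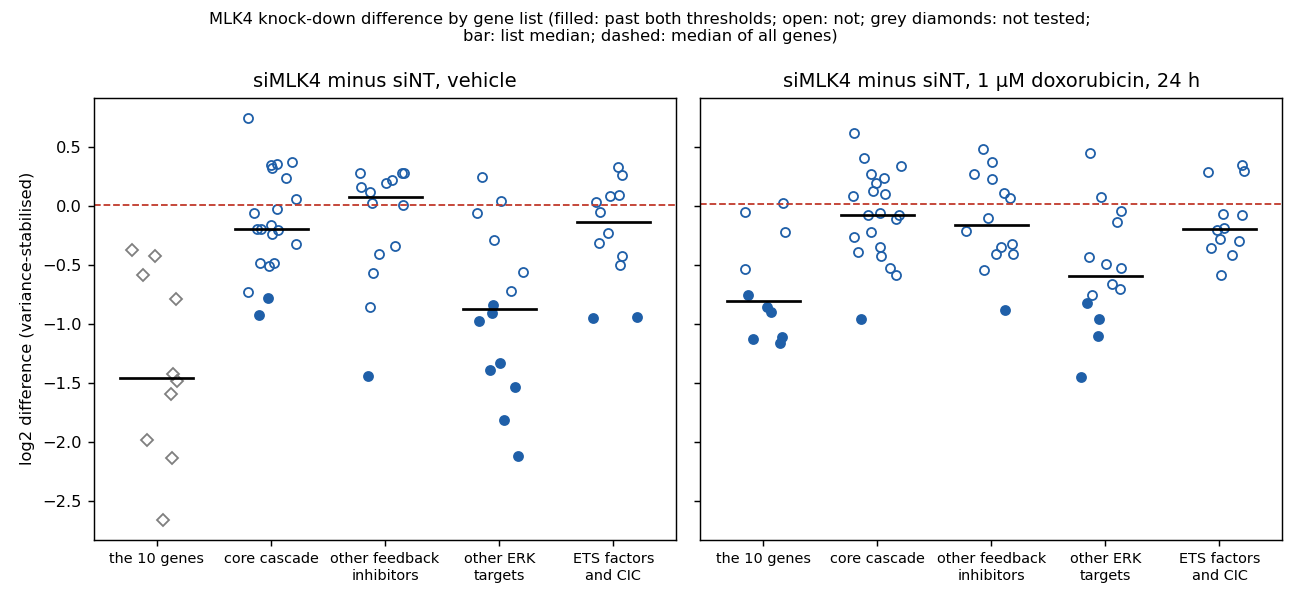
Log2 difference between siMLK4 and siNT on the variance-stabilised scale in vehicle (left) and with doxorubicin (right) for the 10 genes and the 4 lists; each point is a gene, filled where it passed both thresholds, grey diamonds were not tested, bars are list medians and the dashed line is the median of all genes. The other ERK targets have medians of -0.87 and -0.59, and the core cascade, other feedback inhibitors and ETS list lie between -0.19 and 0.08.

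For 3 housekeeping transcripts the same comparisons were made. ACTB fell with doxorubicin by 1.21 in siNT and by 1.04 in siMLK4 cells on the log2 scale. GAPDH fell by 0.87 in siMLK4 cells and differed by -0.74 in siNT cells, short of the fold threshold. B2M was higher with drug, short of that threshold, by 0.50 under each siRNA (limma, SE 0.13, adjusted p = 0.00576 in siNT and 0.00531 in siMLK4), from 22350 ± 2986 to 31380 ± 582 normalised reads in siNT and from 23240 ± 3842 to 32670 ± 1041 in siMLK4 (SD, n = 3 each). Between the siRNAs, ACTB differed by -0.34 in vehicle and by -0.16 with the drug (SE 0.16 each), and GAPDH by 0.00 and -0.12 (SE 0.13 each), so neither passed the test in those comparisons.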

How the data were processed

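Poly(A)-selected RNA of HCC1806 cells, by the study's methods, was sequenced in 12 libraries, 3 in each of the groups siNT and siMLK4 with DMSO or doxorubicin, and grouped by the labels. The authors trimmed reads (Trimmomatic 0.39), aligned them with HISAT2, counted them per gene with HTSeq 0.6.0 and transformed them with DESeq2 1.26.0, per the labels' processing notes. The deposited values are variance-stabilised expression on a log2 scale for 17013 genes. The labels name hg19 and the study's methods GRCh38, so gene positions and transcripts were taken by Ensembl ID from GENCODE 44 (GRCh38) and promoters from RefSeq.

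The transformation was inverted, with 0 reads at the lowest value, 4.76. Whole reads resulted for 100.0% of the values in each library (tolerance 0.05), with size factors between 0.852 and 1.20. All 12 libraries were fitted as 4 group means with limma 3.58.1 (R 4.3.3; lmFit, eBayes with a variance trend), and p-values were adjusted by Benjamini-Hochberg over all genes. Calls required an adjusted p below 0.01 together with a log2 difference larger than 0.75 in either direction. The procedure was tested on simulated data. No filter beyond that of the authors was applied.

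The members and the lists were chosen with earlier results of these data known. Named were all members, MAP3K21, ACTB, GAPDH, B2M, list genes called at least once, and the 5 genes of highest correlation with DUSP6 and with PHLDA1, besides the cell type markers.

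Same-numbered libraries were checked for shared deviations from their group means. The correlations over genes were 0.46, 0.11 and 0.20 for siNT without and with drug, and 0.19, 0.52 and 0.56 for siNT and siMLK4 with drug. They were -0.08, 0.18 and 0.34 for siMLK4 without and with drug, and -0.72, 0.32 and -0.52 for siNT and siMLK4 without drug. Differently numbered libraries were not compared in this way, so these correlations do not show whether the numbers pair libraries. Alternatives comprised other scalings, pseudocounts of 1 and 8, limma-voom, a minimum of 10 reads in every library, only the groups compared, a replicate block, no variance trend, an adjusted p under 0.05, single libraries left out and, chosen after seeing the data, the slope of values on exon length.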

Additional observations from a re-analysis of the deposited data

Results flagged for a closer look

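The difference between the responses to doxorubicin under the 2 siRNAs was 1.53 on the log2 scale for DUSP6 and 1.61 for ETV5. Both values contain the drug-free comparison on which these genes were chosen, so they are a description without a test, and each gene was lower in all 3 siMLK4 vehicle libraries than in any other library. EGR1, an ERK target outside the 10 genes, had a difference of 1.10 that passed the test across all genes, with a response of 0.56 in siNT and 1.67 in siMLK4 cells, but it lost that call without single libraries in 11 of 12 cases. The part of exon length slope, library composition and seed matches in these 3 values was not tested beyond the alternatives given for the processing.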

How the results depend on the processing

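Of 1140 recomputed values of the 10 genes, 1086 kept their direction and their side of the thresholds or moved by less than the spread, 21 lost and 6 gained a call, 11 moved further and 16 changed sign. All that changed sign were uncalled. Lost and gained calls were counted in the comparisons other than siMLK4 against siNT without drug, where the members carry no test and values were held only to the spread. There SPRY2, at -0.58, came past both thresholds with log2(normalised reads + 1) (-0.81), log2(normalised reads + 8) (-0.76) and limma-voom (-0.81), and past an adjusted p under 0.05 with no fold threshold. SPRED1, at -0.78, was no longer past them with library totals (-0.66) or upper-quartile scaling (-0.71), where the median of all genes moved to 0.11 and 0.115. Relative to that median SPRED1 stood at -0.77 and -0.82, beside -0.79 in the main fit. It was also no longer past them with the length slope (-0.73) and only the groups compared (-0.78). The same held without replicate 3 of siNT (-0.67) or of siMLK4 (-0.66) in vehicle. For DUSP4 and ETV4 in siNT cells given doxorubicin, library totals gave 0.23 and upper-quartile scaling 0.14 for each, where the median of all genes moved to 0.20 and 0.16, so that relative to it both stood at 0.03 and -0.02. Library totals gave 0.02 for SPRY2 between the siRNAs with drug, where the median of all genes moved to 0.097. Relative to that median SPRY2 stood at -0.08, beside -0.07 in the main fit. The length slope gave 0.07 for SPRED2 in siNT cells given the drug. Without single libraries, the responses in siNT cells ranged from -0.11 to 0.09 for DUSP4, from -0.03 to 0.14 for SPRY4 and from -0.05 to 0.07 for ETV4. SPRED2 then ranged from -0.01 to 0.27 in its response in siMLK4 cells and from -0.04 to 0.08 between the siRNAs with drug. The members called lower in siNT cells given the drug were 2 at an adjusted p under 0.05 with no fold threshold.

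At that threshold 9745 and 9858 genes changed with doxorubicin in siNT and siMLK4 cells, 4381 and 4219 between the siRNAs without and with drug, and 204 in the difference of the responses, against 3859, 3949, 961, 950 and 47. Between the siRNAs without drug, upper-quartile scaling called 1710 genes, log2(normalised reads + 1) 1613, log2(normalised reads + 8) 1611, limma-voom 1483 and a fit of only the groups compared 611. With drug, log2(normalised reads + 8) called 1484 and limma-voom 1466. For the difference of the responses, upper-quartile scaling called 30, limma-voom 29 and the length slope 231 genes. Limma-voom left 1 member, DUSP6, called higher there. Leaving out single libraries gave 0 to 37 genes and 0 to 2 members for that difference, both 0 without the siMLK4 doxorubicin library of replicate 1. With the replicate block 1 member was called higher there, ETV5 losing its call, and no other of 50 member calls changed with the block. For the members these are counts of values past the thresholds and no test, since they were chosen on libraries that enter the difference. The causes were not tested. Among list genes lower in siMLK4 cells without drug, PLAUR lost its call without the siNT or the siMLK4 vehicle library of replicate 1 (-0.72 and -0.70) and ELK4 without the siMLK4 vehicle library of replicate 3 (-0.74). Doxorubicin calls were lost without single libraries for NRAS, RRAS2, IL17RD, ERRFI1, DUSP9 and EPHA2 in siNT cells and for SPRY3, DUSP9, DUSP16 and ETV1 in siMLK4 cells, the values in the lowered direction lying between -0.82 and -0.62 and the others between 0.63 and 0.78. Of the members, SPRY2 had the lowest value, 78.2 normalised reads in 1 library.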
